A study of Mus musculus with 4 samples.

Results

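The genes described here are p53, its MDM2-family regulators and a set of genes known as targets of p53, measured in mouse Th17 cultures. They were listed by name, and 33 of the 34 listed genes had a row among the 19555 rows deposited for each library, with Gdf15 not analysed here. A mean of at least 1 RPKM (reads scaled for exon length and for library size by the authors) over the libraries was reached by 31 of the 33. The other two, Eda2r and Rrm2b, are given by their levels only.

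The cultures began with naive CD4+ T cells of C57BL/6 mice, taken from lymph nodes and spleen, that were grown for 3 days with IL-6 and TGF-β1, which together steer T cells to the IL-17-producing Th17 fate. There was 1 library for each of 4 groups. These were Smad4 knockout (KO) cells at 39.5 °C, Smad4 KO cells at 37 °C, wild-type (WT) cells at 39.5 °C and WT cells at 37 °C, all under the same cytokines. SMAD4 is the shared subunit through which TGF-β receptors act on genes, and 39.5 °C is a fever-range temperature. The labels do not say how Smad4 was deleted or whether libraries came from different animals or culture days.

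p53, encoded by Trp53, is a transcription factor that is mainly controlled after its messenger RNA is made. MDM2 marks it for destruction and MDM4 blocks its activity, and stress such as DNA damage releases it from both. Released p53 raises genes that halt the cell cycle, repair DNA, adjust metabolism or start apoptosis, and it raises Mdm2 in a feedback loop. In T cells these target genes are known to respond to DNA damage and to proliferative stress.

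The libraries held between 18048963 and 18475248 reads, as recovered from the RPKM values. The libraries labelled KO had 21.3 and 20.7 RPKM of Smad4 at 39.5 and 37 °C, against 14.2 and 14 RPKM in WT, so its level went against the label. Loss of a few exons need not lower a value summed over the gene. The groups are therefore called KO-labelled, and every genotype direction below rests on that label. All 9 T cell marker genes were measured, with summed levels of 2485 and 2663 RPKM in the KO-labelled libraries at 39.5 and 37 °C and 1939 and 2064 RPKM in WT. The 10 Th17 markers summed to 559.8 and 391 RPKM in the KO-labelled libraries at 39.5 and 37 °C, against 2357 and 908 RPKM in WT, so this marker sum moved with both temperature and genotype label. Markers of B cells (1 of 6 with a row, Cd79a) summed to at most 0.485 RPKM, of erythroid cells (1 of 4, Hba-a1) to at most 0.401 RPKM, of myeloid cells (4 of 8, with Cd68 highest) to between 2.96 and 8.33 RPKM, and of CD8 T and NK cells (4 of 8) to between 4.46 and 6.26 RPKM. Within the myeloid list, Cd68 was higher at 39.5 °C in both genotypes (8.17 against 3.61 RPKM in the KO-labelled libraries, 4.57 against 1.70 RPKM in WT). The other measured myeloid markers, Lyz2, Csf1r and Fcgr3, stood at or under 1.22 RPKM in all 4 libraries. Each was lower at 39.5 °C in the KO-labelled libraries, on few reads (1 against 8, 5 against 7 and 2 against 5). In WT, Lyz2 (31 against 24 reads) and Csf1r (12 against 6) were higher at 39.5 °C, and Fcgr3 had 6 reads at each temperature. The part of these shifts in the results below was not tested.

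Promoter sequence is shown for the 4 members whose window held a near match to the p53 consensus element, as a picture of the DNA that marks a textbook target. The windows are RefSeq's, on build GRCm38.p6, and run from 250 bases before to 50 bases after a transcription start. The search was for the p53 consensus element of 20 bases, which is a pair of half-sites of 10 bases side by side, reads the same on both strands, and was allowed 1 mismatch outside the fixed C and G of each core. Capitals mark the match.
Cdkn1a, chr17:29090729-29091028, plus strand: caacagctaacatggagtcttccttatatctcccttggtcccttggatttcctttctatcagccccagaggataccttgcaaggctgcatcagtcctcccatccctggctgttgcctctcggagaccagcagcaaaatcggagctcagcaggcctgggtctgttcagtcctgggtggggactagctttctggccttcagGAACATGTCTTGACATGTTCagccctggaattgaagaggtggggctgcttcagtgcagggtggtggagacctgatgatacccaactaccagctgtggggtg
Ccng1, chr11:40755237-40755536, minus strand: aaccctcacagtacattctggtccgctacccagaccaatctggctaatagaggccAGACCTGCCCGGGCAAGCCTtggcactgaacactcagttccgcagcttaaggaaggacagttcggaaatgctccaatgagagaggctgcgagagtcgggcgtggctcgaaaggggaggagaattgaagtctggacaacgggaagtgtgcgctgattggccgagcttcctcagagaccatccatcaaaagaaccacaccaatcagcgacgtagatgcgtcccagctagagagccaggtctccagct
Gtse1, chr15:85859696-85859995, plus strand: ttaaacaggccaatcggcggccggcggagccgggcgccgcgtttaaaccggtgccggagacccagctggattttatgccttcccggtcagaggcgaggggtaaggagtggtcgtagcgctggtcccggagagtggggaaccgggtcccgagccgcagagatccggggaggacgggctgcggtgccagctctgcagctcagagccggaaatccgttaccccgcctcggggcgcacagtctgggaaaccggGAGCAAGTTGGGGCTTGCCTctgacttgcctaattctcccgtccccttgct
Rps27l, chr9:66946163-66946462, plus strand: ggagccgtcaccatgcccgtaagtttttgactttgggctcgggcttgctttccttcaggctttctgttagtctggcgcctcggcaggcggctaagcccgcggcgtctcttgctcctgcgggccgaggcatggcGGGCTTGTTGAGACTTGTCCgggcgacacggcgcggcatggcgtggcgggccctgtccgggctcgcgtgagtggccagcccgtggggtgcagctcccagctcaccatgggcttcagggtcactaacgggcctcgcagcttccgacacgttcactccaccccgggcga
The Cdkn1a match lies 51 to 32 bases before an upstream start of the gene, the Ccng1 match 195 to 176 bases before and the Rps27l match 117 to 98 bases before the start of their windows' transcripts. The Gtse1 match begins 1 base before its start. For Rps27l and Gtse1 the start used lies inside the gene, downstream of another start with its own window. In that upstream window the best string had 7 mismatches for Rps27l and 6 for Gtse1. Of 32851 windows of this length, 22 (0.067%) held such a match. Counted by gene, 4 of 25 measured members with a window had one, beside 0.0814% of 27025 genes. Windows were found for 25 of the measured members, and no window is shown for Zmat3, Trp53inp1, Pmaip1, Perp, Tnfrsf10b, Ddb2, Xpc and Rrm2b. With up to 3 mismatches, Bbc3, Aen, Sesn1 and Trp53 also had a match. That made 8 of 25 members, beside 1.63% of all genes and 1.38% of all windows. A match is a string of letters and not a measured binding site, and elements elsewhere in a gene lie outside these windows.

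The members did not all follow one order across the 4 libraries. The WT library at 39.5 °C was the highest of the 4 for 23 of the 31 members, and it was the highest for 26.3% of all 13715 genes with a mean of at least 1 RPKM. The WT library at 37 °C was the lowest for 16 of the 31, against 21.2% of all genes. Of the 31 members, 21 were higher at 39.5 °C than at 37 °C in both genotypes, beside 27.9% of all genes. Summed over the 33 measured members, levels were 696 and 579 RPKM in the KO-labelled libraries at 39.5 and 37 °C, and 872 and 434 RPKM in WT at 39.5 and 37 °C. In a bulk sample, fewer cells that express a gene and less of its RNA per cell cannot be told apart.

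**Figure D1:**
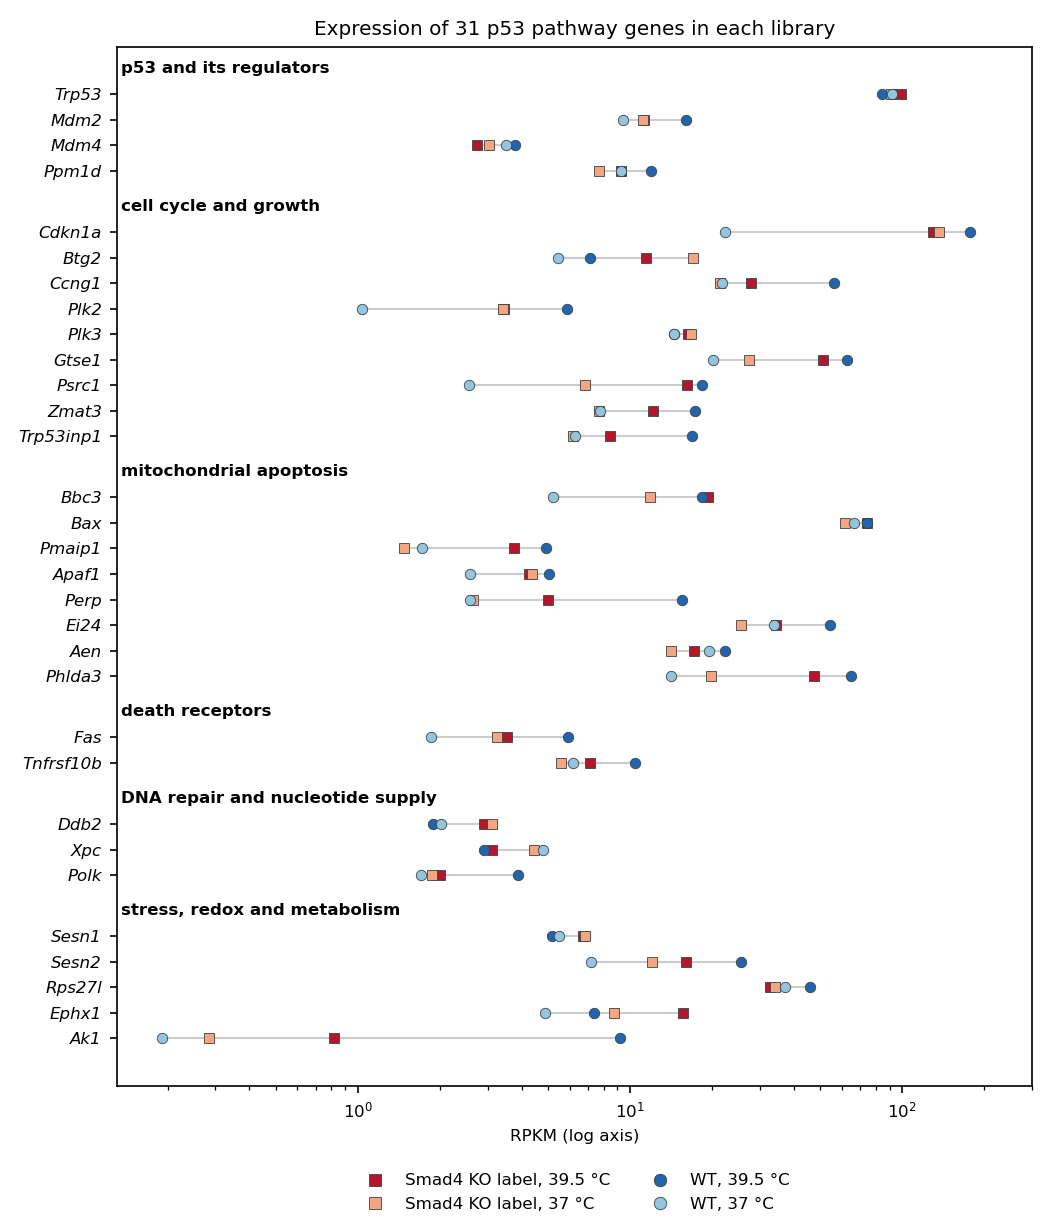
RPKM (log axis) of the 31 members in each library, grouped by role, with 1 point per library and a grey line from the lowest to the highest. Cdkn1a in WT at 37 °C (22.3 RPKM) stands apart from its other 3 values (130.3 to 178 RPKM), while Trp53 stays between 84.3 and 98.9 RPKM in all 4.

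At 39.5 °C many p53 targets were higher in WT cells while Trp53 was not. Of the 31 members, 2 were at least 2-fold higher at 39.5 °C in the KO-labelled libraries and 14 in WT, on the scale of log2(RPKM + 1). By the same rule 0.751% of all genes were higher in the KO-labelled pair and 1.46% in WT. No member was 2-fold lower in either pair, where 0.911% of all genes were lower in the KO-labelled pair and 0.525% in WT. The median log2 ratio of the 31 members was 0.26 in the KO-labelled pair and 0.75 in WT, beside −0.01 and −0.02 over all genes. With 1 library a group, no single ratio has a replicate check, and the 95% intervals given with ratios cover counting error only. An earlier look at these data had already shown p53 and apoptosis genes higher at 39.5 °C, so the direction is not independent evidence.

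Trp53 (chromosome 11, 69580359 to 69591873, plus strand) was abundant and varied little, with 98.9 and 90.8 RPKM at 39.5 and 37 °C in the KO-labelled libraries and 84.3 and 91.7 RPKM in WT. Its temperature ratio was 1.09 (95% interval 1.05 to 1.13) in the KO-labelled pair and 0.920 (0.889 to 0.952) in WT, small shifts on opposite sides of 1. Mdm2, the ubiquitin ligase gene that is itself a p53 target, stood at 11.3 and 11.2 RPKM in the KO-labelled libraries at 39.5 and 37 °C and at 16.1 and 9.40 RPKM in WT. The Mdm2 ratio was 1.01 (0.927 to 1.10) in the KO-labelled pair and 1.72 (1.58 to 1.87) in WT, so it was higher at 39.5 °C in WT without reaching 2-fold. Mdm4, whose product inhibits p53 without destroying it, varied little, at 2.75 and 3.04 RPKM in the KO-labelled libraries and 3.77 and 3.49 RPKM in WT. Ppm1d, the gene of the WIP1 phosphatase that dampens p53 signalling, was at 9.31 and 7.68 RPKM in the KO-labelled libraries and 11.9 and 9.24 RPKM in WT, with like ratios of 1.21 (1.07 to 1.38) and 1.29 (1.15 to 1.44).

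Of the 9 members with roles in cell cycle and growth, 1 was at least 2-fold higher at 39.5 °C in the KO-labelled pair and 7 in WT. Over all genes the shares were 0.751% and 1.46%. Cdkn1a (chromosome 17, 29090976 to 29100727 on the plus strand of GRCm38), which encodes the CDK inhibitor p21, had 130.3 RPKM (5333 reads) at 39.5 °C and 137 RPKM (5380 reads) at 37 °C in the KO-labelled libraries, and 178 RPKM (7628 reads) and 22.3 RPKM (902 reads) in WT. Only the WT library at 37 °C was low, and the other 3 libraries lay within a narrow span. The temperature ratio of Cdkn1a was 0.95 (0.914 to 0.987) in the KO-labelled pair and 7.98 (7.45 to 8.56) in WT. The WT log2 ratio of 2.94 ranked 3 from the top among 13715 genes. Plk2, a polo-like kinase gene induced by p53, had the same outline at a far lower level, with 3.45 and 3.41 RPKM in the KO-labelled libraries and 5.88 and 1.04 RPKM in WT. Its ratio was 1.01 (0.853 to 1.2) in the KO-labelled pair and 5.66 (4.49 to 7.21) in WT.

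Psrc1 and Gtse1 encode proteins of the mitotic spindle and microtubules, and both were higher at 39.5 °C in each genotype. Psrc1 had 16.2 and 6.84 RPKM at 39.5 and 37 °C in the KO-labelled libraries and 18.4 and 2.56 RPKM in WT, with ratios of 2.37 (2.11 to 2.67) and 7.19 (6.09 to 8.55). Gtse1, whose product holds p53 in check in G2 phase, had 51.4 and 27.3 RPKM in the KO-labelled libraries and 62.8 and 20.2 RPKM in WT, with ratios of 1.88 (1.76 to 2.01) and 3.11 (2.89 to 3.34). For both genes the 2 libraries at 39.5 °C lay above the 2 at 37 °C. Ccng1, the cyclin G1 gene, had 27.8 and 21.5 RPKM at 39.5 and 37 °C in the KO-labelled libraries and 56.1 and 21.8 RPKM in WT. Trp53inp1, a stress-induced cofactor of p53 and of autophagy, followed with 8.46 and 6.16 RPKM in the KO-labelled libraries and 16.9 and 6.26 RPKM in WT. Zmat3, which encodes an RNA-binding zinc finger protein, had 12.2 and 7.70 RPKM in the KO-labelled libraries and 17.4 and 7.73 RPKM in WT. These genes had nearly equal levels in the genotypes at 37 °C, and all were higher at 39.5 °C in both. The ratio of Ccng1 was 1.29 (1.2 to 1.39) in the KO-labelled pair and 2.57 (2.42 to 2.74) in WT. That of Trp53inp1 was 1.37 (1.25 to 1.51) in the KO-labelled pair and 2.70 (2.48 to 2.94) in WT, and that of Zmat3 1.59 (1.49 to 1.69) and 2.25 (2.12 to 2.39).

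Btg2 and Plk3 did not share this outline. Btg2, an antiproliferative gene, was at 11.5 and 17.1 RPKM at 39.5 and 37 °C in the KO-labelled libraries and 7.12 and 5.46 RPKM in WT, so its ratio was 0.670 (0.602 to 0.746) in the KO-labelled pair and 1.30 (1.11 to 1.53) in WT. Plk3 lay between 14.5 and 16.8 RPKM in all 4 libraries. Plk3 overlaps Tctex1d4 on the opposite strand by gene span, and no label states whether counting used strand. Reads from any shared exon therefore cannot be told apart, though overlap of exons was not examined. Tctex1d4 stood at 0.28 and 0.0494 RPKM in WT at 39.5 and 37 °C. Cdkn1a and Sesn2, among others, also overlap annotated transcripts (AC167363.2 on the opposite strand and Gm12981 on the same strand).

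Among the 8 members tied to mitochondrial apoptosis and its control, 1 was at least 2-fold higher at 39.5 °C in the KO-labelled pair and 4 in WT. Those shares over all genes were 0.751% and 1.46%. Phlda3 (chromosome 1, 135766119 to 135769136, plus strand), whose product blocks the survival kinase AKT, had 47.3 RPKM (1359 reads) and 19.9 RPKM (546 reads) at 39.5 and 37 °C in the KO-labelled libraries and 65.1 RPKM (1961 reads) and 14.2 RPKM (404 reads) in WT. Both libraries at 39.5 °C were above both at 37 °C, with ratios of 2.38 (2.16 to 2.64) in the KO-labelled pair and 4.58 (4.11 to 5.11) in WT. Bbc3, the gene of the BH3-only killer PUMA, had 19.4 and 11.8 RPKM in the KO-labelled libraries and 18.4 and 5.22 RPKM in WT, with ratios of 1.65 (1.47 to 1.86) and 3.52 (3.01 to 4.13). Its levels at 39.5 °C were close in the 2 genotypes, and the gap lay at 37 °C. Pmaip1, the gene of the BH3-only protein NOXA, had 3.74 and 1.48 RPKM in the KO-labelled libraries and 4.93 and 1.72 RPKM in WT, and its ratios of 2.53 (1.91 to 3.38) and 2.86 (2.23 to 3.72) had overlapping intervals. The Pmaip1 log2 ratio of 0.93 in the KO-labelled pair fell short of 1, because adding 1 to each RPKM shrinks the ratio of a low gene. Perp, which encodes a membrane protein of p53-dependent death and of cell junctions, had 5.01 and 2.64 RPKM in the KO-labelled libraries and 15.5 and 2.59 RPKM in WT, with ratios of 1.90 (1.46 to 2.47) and 6.01 (4.82 to 7.57).

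The other members of the group varied less with temperature. Bax, the pore-forming gene that many p53 studies use as a target, was at 74.0 and 61.5 RPKM at 39.5 and 37 °C in the KO-labelled libraries and 74.5 and 66.3 RPKM in WT, with ratios of 1.2 (1.13 to 1.28) and 1.12 (1.06 to 1.19). Bax overlaps Gm45808 on the same strand by gene span, so its reads from any shared exon are uncertain by gene. Apaf1, the apoptosome scaffold gene, was at 4.24 and 4.36 RPKM in the KO-labelled libraries and 5.05 and 2.59 RPKM in WT, where its ratio was 1.95 (1.74 to 2.20). Ei24, an endoplasmic reticulum protein gene, was at 34.3 and 25.5 RPKM in the KO-labelled libraries and 54.2 and 33.7 RPKM in WT. Aen, the gene of a p53-induced nuclease, was at 17.2 and 14.2 RPKM in the KO-labelled libraries and 22.3 and 19.6 RPKM in WT. All of these were within 2-fold in both pairs.

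The death receptor genes were low. Fas, the receptor for FAS ligand that limits activated T cells, had 3.53 RPKM (117 reads) and 3.24 RPKM (103 reads) at 39.5 and 37 °C in the KO-labelled libraries and 5.92 RPKM (206 reads) and 1.86 RPKM (61 reads) in WT. Its ratio was 1.09 (0.828 to 1.43) in the KO-labelled pair and 3.19 (2.38 to 4.31) in WT, again with the WT library at 37 °C alone at the bottom. Tnfrsf10b, the mouse TRAIL receptor gene, was at 7.16 and 5.56 RPKM in the KO-labelled libraries and 10.4 and 6.18 RPKM in WT, within 2-fold in both. Eda2r, the receptor gene for ectodysplasin A2, had 7 and 3 reads in the KO-labelled libraries and 10 and 0 reads in WT, too few to compare.

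Among the DNA repair members, Polk alone had ratios above 1 in both pairs, with an interval that includes 1 in the KO-labelled pair. Polk, the gene of a translesion polymerase, was at 2.0 and 1.87 RPKM at 39.5 and 37 °C in the KO-labelled libraries and 3.88 and 1.71 RPKM in WT. The RPKM ratio of Polk in WT was 2.27 (1.90 to 2.72), and its log2 ratio of 0.85 on the log2(RPKM + 1) scale made it the nearest member below the 2-fold rule. Xpc, a damage sensor of nucleotide excision repair, was at 3.12 and 4.43 RPKM in the KO-labelled libraries and 2.92 and 4.79 RPKM in WT, with ratios of 0.706 (0.608 to 0.818) and 0.611 (0.528 to 0.706), so it was lower at 39.5 °C in both. Ddb2, the sensor gene that acts with it, was level with temperature at 2.92 and 3.11 RPKM in the KO-labelled libraries and 1.89 and 2.03 RPKM in WT, and it overlaps Acp2 on the opposite strand. Rrm2b, the ribonucleotide reductase subunit gene, was between 0.291 and 0.547 RPKM in all 4 libraries.

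In the stress, redox and metabolism group, Ak1 and Sesn2 were at least 2-fold higher at 39.5 °C in WT, and no member was so in the KO-labelled pair. Of all genes, 1.46% were so in WT and 0.751% in the KO-labelled pair. Ak1 (chromosome 2, 32621758 to 32635058, plus strand), the cytosolic adenylate kinase gene, had 0.817 RPKM (39 reads) and 0.284 RPKM (13 reads) at 39.5 and 37 °C in the KO-labelled libraries and 9.17 RPKM (459 reads) and 0.191 RPKM (9 reads) in WT. It was close to silent in 3 libraries and present in 1. Its ratio was 2.87 (1.5 to 5.87) in the KO-labelled pair and 48.1 (25.1 to 106) in WT, and its WT log2 ratio of 3.09 ranked 2 from the top among all genes. Sesn2, which restrains mTORC1 in stress, had 16.1 and 12.1 RPKM in the KO-labelled libraries and 25.6 and 7.19 RPKM in WT, with ratios of 1.33 (1.21 to 1.47) and 3.56 (3.21 to 3.95). Its relative Sesn1 was flat, between 5.16 and 6.85 RPKM. Rps27l, the ribosomal protein paralog gene whose window carries a near match above, was at 32.8 and 34.0 RPKM in the KO-labelled libraries and 45.8 and 37.2 RPKM in WT, and reads of such paralogs are uncertain by gene. Ephx1, an epoxide hydrolase gene, was at 15.7 and 8.75 RPKM in the KO-labelled libraries and 7.36 and 4.87 RPKM in WT, the one member among those at least 1.5-fold higher in WT by RPKM whose ratio was larger in the KO-labelled pair, at 1.79 (1.56 to 2.07) beside 1.51 (1.24 to 1.84).

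**Figure D2:**
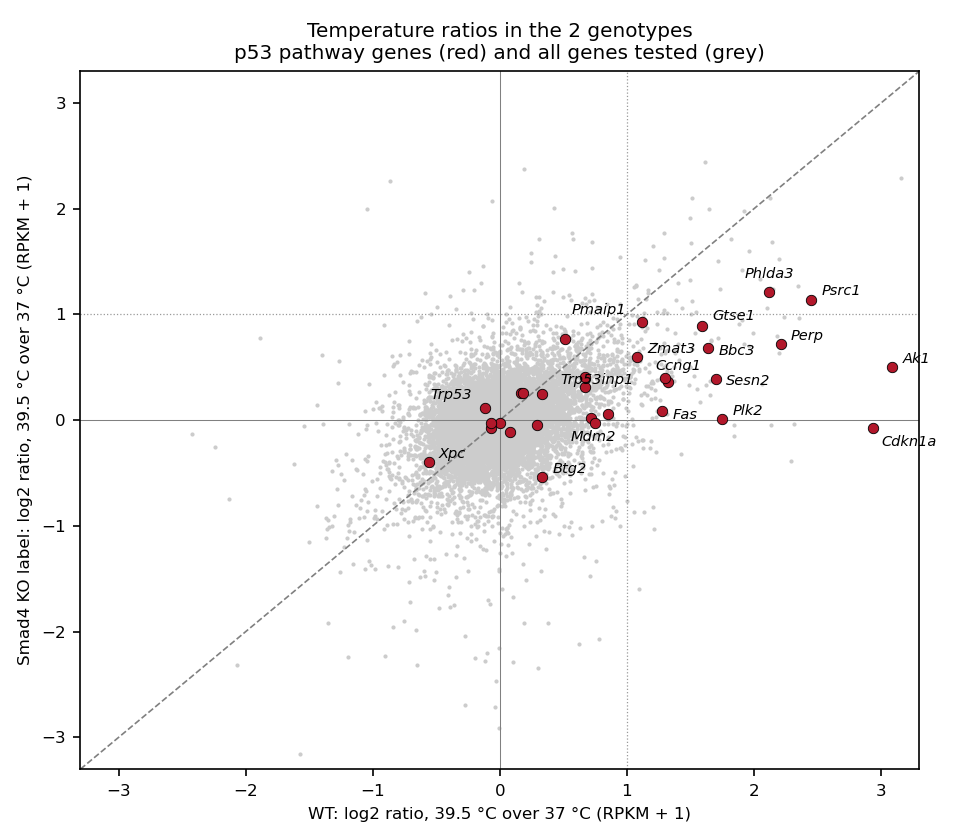
Each point is a gene, placed by its log2 ratio of 39.5 °C over 37 °C on the log2(RPKM + 1) scale in WT (x axis) and in the KO-labelled pair (y axis). Red points are the 31 members, grey points all 13715 genes tested, the dashed line marks equal ratios and the dotted lines 2-fold. Most red points lie right of 0 and below the dashed line, and Cdkn1a and Ak1 lie at the far right, at 2.94 and 3.09.

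The pairs share no library, so the temperature ratios can be set side by side. The ratio was smaller in the KO-labelled pair than in WT for 25 of the 31 members on the log2(RPKM + 1) scale, beside 50.4% of all genes. The difference of the log2 ratios had a median of −0.70 over the members and 0.00 over all genes. For 7 members the ratio was at least 2-fold smaller in the KO-labelled pair, beside 1.55% of all genes, and for none was it 2-fold larger, beside 0.671%. These 7 were Cdkn1a, Ak1, Plk2, Perp, Sesn2, Psrc1 and Fas. Cdkn1a had the lowest difference among all 13715 genes, with a ratio of ratios of 0.119 (95% interval for counting error 0.110 to 0.129). For Ak1 it was 0.0597 (0.0213 to 0.164), resting on 9 reads in WT at 37 °C. Plk2 had 0.179 (0.133 to 0.239), Perp 0.315 (0.223 to 0.447), Psrc1 0.330 (0.268 to 0.406), Fas 0.342 (0.227 to 0.513) and Sesn2 0.375 (0.325 to 0.432). At the other end on the log2(RPKM + 1) scale, Ephx1 had a ratio of ratios of 1.19 (0.930 to 1.51), Trp53 1.18 (1.13 to 1.24) and Xpc 1.16 (0.938 to 1.42). The interval of Trp53 lay above 1 and those of Ephx1 and Xpc included it. With 1 library a group this difference has no test.

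A change common to both genotypes was tested with limma in an additive fit of genotype and temperature on log2(RPKM + 1) over all 13715 genes, with 1 residual degree of freedom. At a Benjamini-Hochberg adjusted p under 0.05, 0 members changed with temperature, where 0.0583% of all genes rose and 0.00729% fell. At an unadjusted p under 0.05, 14 members were higher and 1 was lower, beside 7.16% and 6.82% of all genes. The members with the lowest adjusted p in limma were Phlda3 (log2 1.67 ± 0.23 SE, adjusted p = 0.0875) and Pmaip1 (1.03 ± 0.15, adjusted p = 0.0924), each higher in 2 of 2 pairs. Gtse1 (1.24 ± 0.19, adjusted p = 0.108), Zmat3 (0.84 ± 0.16, adjusted p = 0.134) and Psrc1 (1.79 ± 0.32, adjusted p = 0.138) came next in limma. With limma-voom on recovered reads, 4 members passed, and these were Pmaip1, Phlda3, Gtse1 and Zmat3, beside 1.47% of all genes that rose, and 0 fell, beside 0.86%. For Cdkn1a the limma estimate was 1.43 ± 0.71 (adjusted p = 0.463). The interaction is the residual of this fit.

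At 37 °C several members were already high in the KO-labelled library. On the 2-fold rule 5 of the 31 were higher in the KO-labelled library than in WT, beside 4.70% of all genes, and none was lower, beside 1.14%. They were Cdkn1a at a ratio of 6.16 (5.74 to 6.62), Btg2 at 3.14 (2.73 to 3.61), Plk2 at 3.28 (2.56 to 4.24), Psrc1 at 2.67 (2.22 to 3.23) and Bbc3 at 2.25 (1.90 to 2.68). The median log2 ratio of the 31 was 0.11. This comparison and the WT temperature ratio share the WT library at 37 °C, so a low value there enters both, and neither supports the other. Scaled to total reads, Bbc3 had a log2 ratio of 0.96 and no longer met the rule.

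At 39.5 °C, 8 of the 31 members had a higher value in the KO-labelled library than in WT and the others a lower one, with 50.3% of all genes higher. The 8 were Ephx1 at a ratio of 2.13 (1.84 to 2.47), Btg2 at 1.61 (1.41 to 1.84), Ddb2 at 1.54 (1.19 to 2.01), Sesn1 at 1.30 (1.13 to 1.48), Trp53 at 1.17 (1.13 to 1.21), Plk3 at 1.13 (1.02 to 1.25), Xpc at 1.07 (0.911 to 1.25) and Bbc3 at 1.06 (0.956 to 1.17). None was at least 2-fold higher on the log2(RPKM + 1) scale, beside 2.30% of all genes, and 2 were at least 2-fold lower, beside 1.05%. These were Ak1 at a ratio of 0.0891 (0.0625 to 0.124) and Perp at 0.322 (0.271 to 0.381), while Ccng1 at 0.495 (0.468 to 0.523) and Trp53inp1 at 0.501 (0.464 to 0.540) lay just short of the rule on the log2(RPKM + 1) scale. The median log2 ratio was −0.36, beside 0.00 over all genes. A ratio above 1 at 37 °C and below 1 at 39.5 °C was found for 12 of the 31 members, beside 11.6% of all genes. Cdkn1a, for example, was 0.733 (0.708 to 0.759) at 39.5 °C and Plk2 0.586 (0.505 to 0.679). With the reads recovered per library as the scale, 4 members were 2-fold lower at 39.5 °C in the KO-labelled library.

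**Figure D3:**
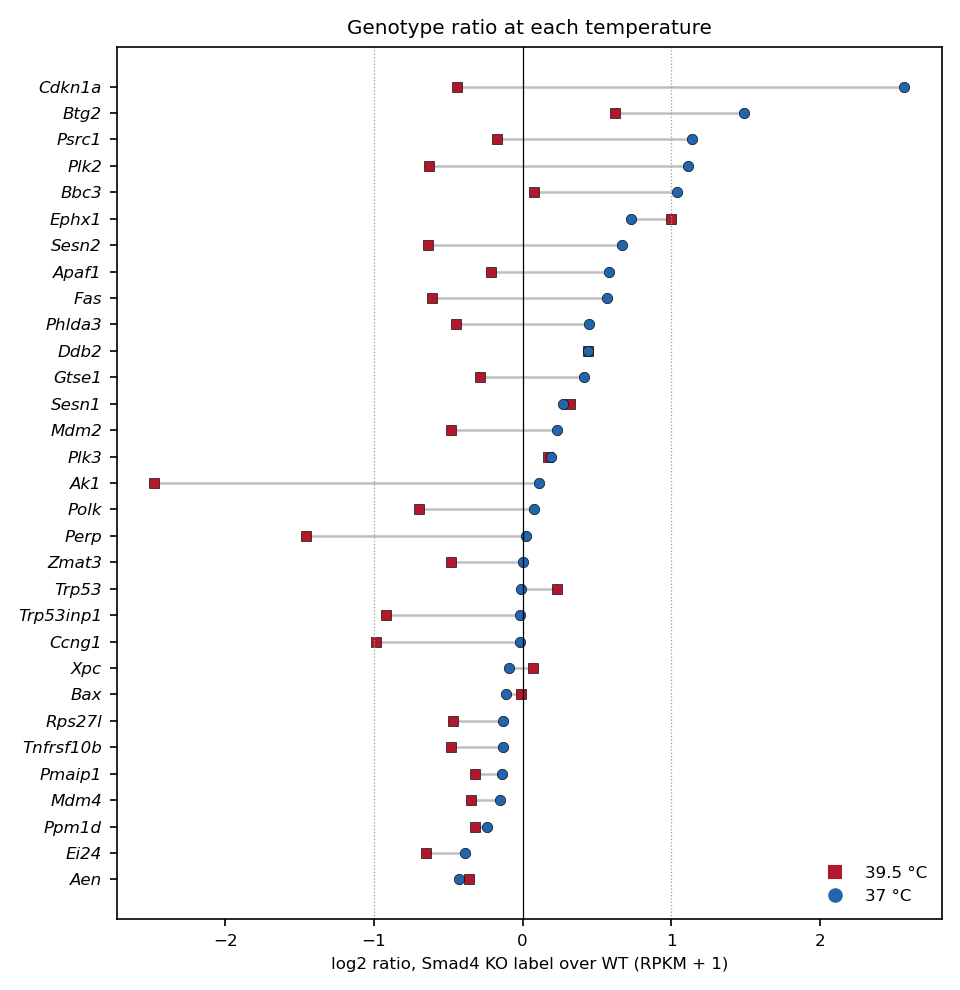
Log2 ratio of the KO-labelled library over WT on the log2(RPKM + 1) scale at 39.5 °C (red squares) and 37 °C (blue circles) for the 31 members, ordered by the value at 37 °C, with dotted lines at 2-fold. The red square lies left of the blue circle for 25 of the 31, and Cdkn1a spans −0.44 at 39.5 °C and 2.57 at 37 °C. By arithmetic these 25 are the members with a smaller temperature ratio in the KO-labelled pair, so this is no separate result.

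Btg2 and Ephx1 rose in the KO-labelled libraries, at 37 and at 39.5 °C. In the same limma fit they were the 2 members with an adjusted p under 0.05, beside 8.51% of all genes that rose, a share close to that of the members. No member fell in limma, beside 4.63% of all genes, and 2 were lower at an unadjusted p under 0.05 (Ei24 and Aen), beside 15.7%. With limma-voom 2 rose, beside 11.7% of all genes, and the same 2 fell, beside 9.39%. Ephx1 had a log2 difference of 0.86 ± 0.13 SE (limma adjusted p = 0.0212), with RPKM ratios of 2.13 (1.84 to 2.47) at 39.5 °C and 1.8 (1.49 to 2.18) at 37 °C. Btg2 had 1.05 ± 0.22 (limma adjusted p = 0.0392), with ratios of 1.61 (1.41 to 1.84) and 3.14 (2.73 to 3.61). Next came Ei24, which stood lower with the label (−0.52 ± 0.13, limma adjusted p = 0.0572) and did not pass. With no filter on low values, neither Btg2 nor Ephx1 passed. Scaled to total reads, the split over all genes was 999 that rose and 1010 that fell with the label, beside 1167 and 635 on the authors' scaling.

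Other genes of the pathway were taken from lists by role. Of 30 further p53 targets outside the members, 25 were tested. None was at least 2-fold higher at 39.5 °C in the KO-labelled pair, beside 0.751% of all genes. In WT 3 were, beside 1.46% of all genes. The median log2 ratios were 0.03 and 0.22, beside −0.01 and −0.02 over all genes. Abhd4, a lipase gene, was at 17.6 and 10.7 RPKM at 39.5 and 37 °C in the KO-labelled libraries and 14.8 and 4.55 RPKM in WT. Dcxr, a xylulose reductase gene, was at 11.8 and 6.69 RPKM in the KO-labelled libraries and 10.3 and 4.37 RPKM in WT. The thiamine transporter gene Slc19a2 was at 11.6 and 8.48 RPKM in the KO-labelled libraries and 21.1 and 9.94 RPKM in WT. All 3 were above their 37 °C level in both genotypes. With the KO label 4 of the 25 rose in limma and none fell, beside 8.51% and 4.63% of all genes, and 6 were lower at an unadjusted p under 0.05, beside 15.7%. Those that rose in limma were Trp53i11 (1.61 ± 0.22 SE, adjusted p = 0.0166), Lpin1 (1.24 ± 0.14, adjusted p = 0.0147), Pml (1.03 ± 0.12, adjusted p = 0.0147), and Tap1 (1.02 ± 0.13, adjusted p = 0.0153), which is named after its value was seen. With limma-voom 5 rose, beside 11.7% of all genes, and 3 fell, beside 9.39%. The 3 were Trp53inp2 and, named after their values were seen, Ercc5 and Fbxw7 (limma-voom adjusted p of 0.0293 for Trp53inp2, 0.0140 for Ercc5 and 0.0236 for Fbxw7).

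Of 20 upstream kinases, cofactors and stabilisers of p53, 16 were tested and none passed 2-fold with temperature in either pair. Over all genes 0.751% were higher and 0.911% lower in the KO-labelled pair, and 1.46% and 0.525% in WT. For 16 genes, a count of none is near those shares. The median log2 ratio was 0.02 in the KO-labelled pair and −0.08 in WT. With the KO label 2 of the 16 rose in limma (12.5%) and 1 fell (6.25%), shares near the 8.51% and 4.63% of all genes. Hipk2, a kinase gene that acts on p53 (0.59 ± 0.13 SE, limma adjusted p = 0.0463), and Ppp1r13l, the gene of the inhibitor iASPP (0.64 ± 0.12, limma adjusted p = 0.0321), rose. The checkpoint kinase gene Chek1 fell (−0.68 ± 0.14, limma adjusted p = 0.0362). Of the 2 p53 paralog genes, Trp73 reached at most 0.0491 RPKM and Trp63 is not analysed here.

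Most cell cycle genes that p21 is known to lower through the DREAM repressor complex were, in these cultures, also higher at 39.5 °C. All 30 were tested, and 30 had a log2 ratio above 0 in the KO-labelled pair and 27 in WT, beside 48.7% and 46.5% of all genes, with medians of 0.43 and 0.65. In WT, Mcm3 (−0.23) and, named after their values were seen, Mcm2 (−0.27) and Mcm5 (−0.17) were lower. Mcm4 (0.02) and, also named after their values were seen, Mcm6 (0.03), Mcm7 (0.00) and E2f1 (0.03) were nearly level there. In limma 0 passed the adjusted threshold, 21 were higher at an unadjusted p under 0.05, beside 7.16% of all genes, and 11 rose with limma-voom, beside 1.47%. Kif20a and Ccnb1, a mitotic kinesin gene and the cyclin B1 gene, were the 2 that were at least 2-fold higher in WT. Over all genes 1.46% were so in WT. Kif20a had a log2 ratio of 0.70 in the KO-labelled pair and 1.05 in WT, and Ccnb1 0.52 in the KO-labelled pair and 1.08 in WT. Psrc1 and Gtse1 are themselves mitotic genes, and the part of the shift in cell cycle genes in their values was not tested. Among other CDK inhibitor genes 3 of 6 were tested, and none was 2-fold changed with temperature. Over all genes 0.751% were higher and 0.911% lower in the KO-labelled pair, and 1.46% and 0.525% in WT. Cdkn2d (1.01 ± 0.20 SE, limma adjusted p = 0.0340) and Cdkn1b (0.55 ± 0.12, limma adjusted p = 0.0447) rose with the KO label, beside 8.51% of all genes.

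Sesn2 and Pmaip1 are also known as targets of ATF4, the factor of the integrated stress response. The 10 genes listed for that response, Sesn2 among them, had medians of −0.35 in the KO-labelled pair and −0.44 in WT. Sesn2 and Atf3, a stress factor gene that p53 is also known to raise, were the 2 that were at least 2-fold higher at 39.5 °C in WT. Of all genes, 1.46% were so. Atf3 stood at 2.07 and 1.29 RPKM in the KO-labelled libraries and 2.79 and 0.484 RPKM in WT. On the log2(RPKM + 1) scale Trib3 was the one at least 2-fold lower, in the KO-labelled pair only. In that pair 0.911% of all genes were 2-fold lower. Trib3 stood at 2.73 and 8.27 RPKM in the KO-labelled libraries, against 1.10 and 2.07 RPKM in WT. Chac1, at or under 1.97 RPKM in all libraries, did not pass on that scale. Its RPKM ratios were 0.420 (0.252 to 0.684) in the KO-labelled pair and 0.377 (0.188 to 0.719) in WT.

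**Figure D4:**
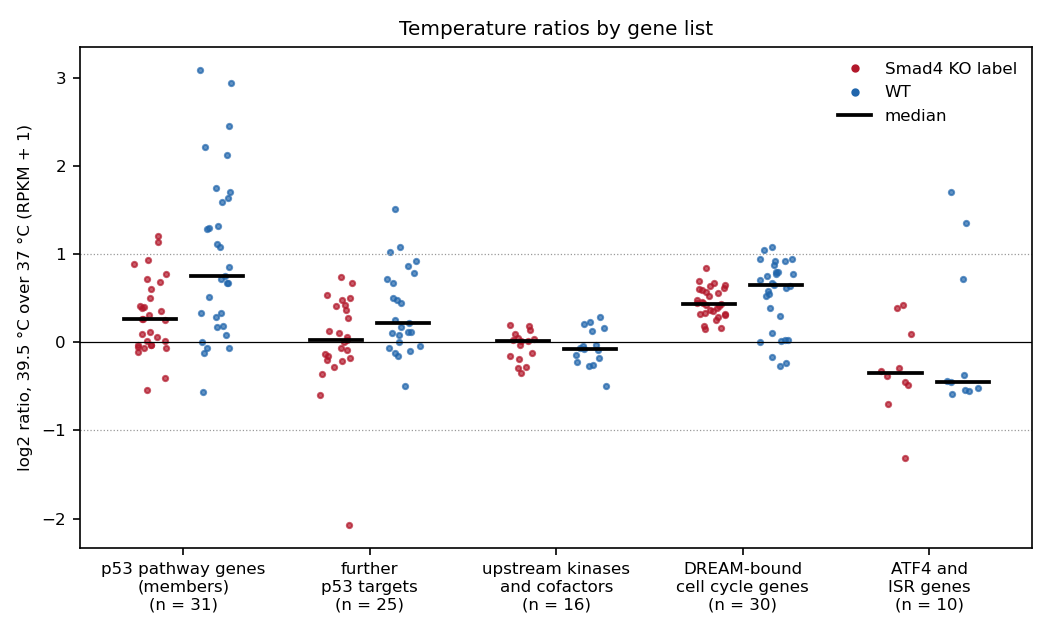
Log2 ratio of 39.5 °C over 37 °C on the log2(RPKM + 1) scale for each tested gene of the members and of 4 other lists, in the KO-labelled pair (red) and in WT (blue), with black bars at the medians and dotted lines at 2-fold. The members have the widest upper range in WT, up to 3.09, while the upstream list stays between −0.49 and 0.29 there.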

How the data were processed

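RNA-seq of 4 mouse Th17 cultures was analysed, with 1 library per group taken from the title labels. The authors deposited 1 table of RPKM values per library. The submitters' processing notes name build mm10 and the tools edgeR, Subread, featureCounts, Bowtie2 and Trim Galore 0.4.4, without their settings. Strandedness, annotation release and gene filtering are not stated.

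Whole reads were recovered by multiplying RPKM by exon length in GENCODE vM21 and 1 library size per table. Of 13144 rows with an annotated length, 12053 (91.7%) came out whole within 0.01 reads in all libraries. With a length solved per row, 19554 of 19555 rows did so, within 0.003 reads or, for large read numbers, a relative 2e-08. Reads recovered were 18475248, 18474629, 18253543 and 18048963 in the KO-labelled libraries at 39.5 and 37 °C and WT at 39.5 and 37 °C. The library size used in each table was 0.9965, 0.9548, 1.0578 and 1.0093 times these reads, so the deposited scale is not that of total reads.

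Genes with a mean of at least 1 RPKM were compared as log2(RPKM + 1), by a 2-fold size rule with no p-value between single libraries. RPKM ratios carry exact Clopper-Pearson 95% intervals from recovered reads, and ratios of ratios exact conditional intervals. No label mentions molecular identifiers, so PCR copies may be counted and these intervals cover counting error only. The additive fit used limma 3.58.1 in R 4.3.3 with a variance trend and robust prior (median prior degrees of freedom 4.475) and Benjamini-Hochberg adjustment over all genes. Its residual is the interaction of temperature and genotype label, so its p-values weigh a change against departure from additivity, moderated over genes. A gene whose temperature ratio differs between the genotypes thus gets a larger SE. Spread between replicate libraries, technical or biological, was not measured. Read recovery and the fit were tested on simulated data. Because the values are RPKM, the planned quasi-likelihood and negative binomial count tests were not run, and limma-voom stood in for them. Members and lists were chosen with earlier results of these data known. All members past the mean of 1 RPKM are named. From each other list, up to 4 genes with the largest shared change with temperature and up to 4 with the largest difference by genotype label could be named. Cop1 was matched through its older symbol Rfwd2. Promoter windows came from RefSeq on GRCm38.p6. One gene of the further target list is not reported here.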

Additional observations from a re-analysis of the deposited data

Results flagged for a closer look

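For 11 members a ratio went one way in one group and the opposite way in the other, with both counting intervals away from 1. The difference itself was not tested, since each group is 1 library. The value given is the temperature ratio in the KO-labelled pair divided by that in WT. With temperature, the direction differed between the genotypes for Trp53 (1.18), Cdkn1a (0.119) and Btg2 (0.514). For Cdkn1a the log2 ratio in the KO-labelled pair was only −0.07. Scaling to total reads shifted that pair's log2 values by −0.011 at 39.5 °C and −0.072 at 37 °C. Under that scaling nearly all of the Cdkn1a fall is gone, and counting intervals do not cover scaling. Upper quartile scaling shifted the same libraries by only −0.002 and −0.018, and median-of-ratios scaling by 0.0 and 0.007. In WT, scaling to total reads shifted log2 values by 0.075 at 39.5 °C and 0.008 at 37 °C. The Trp53 log2 ratio in WT was −0.12, so part of it also depends on that choice. Between KO-labelled and WT libraries, the direction differed between 39.5 and 37 °C for Cdkn1a (0.119), Mdm2 (0.589), Plk2 (0.179), Gtse1 (0.606), Psrc1 (0.330), Apaf1 (0.499), Phlda3 (0.521), Fas (0.342) and Sesn2 (0.375), each lower in the KO-labelled library at 39.5 °C and higher at 37 °C.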

How the results depend on the processing

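Of 180 member counts and medians recomputed under other settings, 158 held, 0 reversed and 22 moved. Of 1797 values of single members, 1735 held their side of the threshold, 59 came to pass it and 3 no longer did. Among values past the threshold in either setting, 0 reversed. Changes of sign among values short of the threshold in both settings were not counted. At a pseudocount of 0.1, members 2-fold higher at 39.5 °C in the KO-labelled pair numbered 4, the WT median was 0.94, and 1 member was 2-fold higher in the KO-labelled library than in WT at 39.5 °C, as it was at 0.5 and with median-of-ratios scaling (1 each). With no filter the median difference of temperature ratios was −0.47 and 0 members rose with the KO label. At a minimum mean of 5 RPKM that median was −0.59, with 4 members at least 2-fold smaller in the KO-labelled pair, 1 lower in the KO-labelled library at 39.5 °C, 4 that rose with temperature and 1 that fell with the KO label. Scaled to total reads, 4 were lower at 39.5 °C with the KO label. One member fell with the KO label in limma under total reads and under upper quartile scaling (1 each). A size rule of 1.5-fold gave 8 higher with temperature in the KO-labelled pair, 2 higher and 9 lower with the KO label at 39.5 °C, and 16 smaller temperature ratios. With limma-voom 4 rose with temperature (median 0.68) and 2 fell with the KO label. Over all genes 8 rose and 1 fell with temperature, against 29 and 22 at a pseudocount of 0.1, 0 and 0 with no filter or no trend, 172 and 106 at a mean of 5 RPKM, 49 and 30 with upper quartile scaling, 2 and 1 with median-of-ratios scaling or a prior that is not robust, and 201 and 118 with limma-voom. With the KO label 1167 rose and 635 fell, against 0 and 0 with no filter, 999 and 1010 scaled to total reads, and 1603 and 1288 with limma-voom. The cause of these moves was not tested, beyond fewer or more genes and a changed threshold by construction. No paired analysis was possible because each group holds 1 library. Leaving out a library leaves no residual degree of freedom. The quasi-likelihood and negative binomial count tests were not run. Low members such as Ak1, Fas and Plk2 are limited by read number.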
